A study of Arabidopsis thaliana with 24 samples.

Results

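SOC1, AGL24, FUL and 5 close relatives of SOC1 are MADS-box transcription factor genes of Arabidopsis thaliana that promote flowering. These 8 genes, SOC1 (AT2G45660), AGL24 (AT4G24540), FUL (AT5G60910), AGL42 (AT5G62165), AGL71 (AT5G51870), AGL72 (AT5G51860), AGL14 (AT4G11880) and AGL19 (AT4G22950), were picked out by their identifiers from 24900 identifiers listed for Ler, Col-0 or both. Of the 8, all were listed in the table of the ecotype Ler and 6 in the table of the ecotype Col-0, where AGL72 and AGL14 were not listed and no gene was listed at a mean of 0. RNA was sequenced from tetraploid Ler, diploid Ler, tetraploid Col-0 and diploid Col-0 seedlings, with 2 libraries in each of the 4 groups. All seedlings were 2 weeks old. They grew on soil, at 22 °C, in long days (16 h light) or short days (8 h light), and which of these a library came from is not recorded in its labels. The labels name no mutant allele or treatment in any group. They also do not say how the tetraploids were made or how many plants went into a library.

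Flowering signals from day length, age, temperature and gibberellin meet at SOC1, which is switched on in the shoot apex as the plant starts to flower and is held down there by the repressors FLC and SVP. AGL24 and SOC1 activate each other and together turn on LFY, which gives the new meristems their floral identity. FUL acts beside SOC1 in the same switch. AGL42, AGL71, AGL72, AGL14 and AGL19 are the nearest relatives of SOC1 and also promote flowering, and AGL19 is a known target of H3K27 trimethylation by Polycomb. By its title, the study concerns flowering time in polyploids of different ecotypes and H3K27 trimethylation.

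The deposited tables hold the authors' mean normalized read count over the 4 libraries of an ecotype and the authors' log2 fold change with its standard error (SE). The headers do not state the direction of the fold change, and it was read as tetraploid over diploid. The grounds for it are FLC, published as higher in tetraploid Col-0, and ESP, a glucosinolate breakdown gene known to be low in diploid Col-0. In the authors' deposited table for Col-0 both had positive values (FLC 2.63 ± 0.17 and ESP 6.94 ± 0.07). ESM1, also looked at, had −3.93 ± 0.07. Implied levels of ESP and ESM1 were 64546 and 992 in tetraploid Col-0, against 524 and 15073 in diploid Col-0. They were 48260 and 900 in tetraploid Ler, and 32266 and 855 in diploid Ler. In both genes tetraploid Col-0 thus lay nearer to Ler than to diploid Col-0. Whether the Col-0 plants differed in more than ploidy was not tested. All directions below depend on reading fold changes as tetraploid over diploid, and for Ler on the same naming of its table. Whole reads per library were recovered from the 15 digits of the deposited means for 98.7% of genes in each table, among them every listed member. The libraries of a ploidy carry no replicate number, and library A is the one with the larger size factor, the factor that scales a library for its depth. Libraries averaged 22138532 normalized reads in Ler and 22343366 in Col-0. The 6 listed leaf markers had deposited means from 44105 to 619046 in Ler and from 52068 to 570856 in Col-0, so the defining leaf transcripts were abundant in the libraries labelled as seedlings.

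In tetraploid Col-0, AGL24 fell to 0.183 times its diploid level and SOC1 to 0.559 times, and FUL was lower in both libraries without passing the test. AGL24 had 38.9 and 36.1 normalized reads in tetraploid Col-0 libraries A and B, against 192 and 219 in diploid Col-0 libraries A and B, from 38, 33, 219 and 216 whole reads. The tetraploid libraries lay far below the diploid ones, with means of 37.5 ± 1.98 in tetraploid and 205 ± 19.2 in diploid Col-0 (SD, n = 2 each). In the authors' deposited table this was a log2 fold change of −2.45 ± 0.32, or 5.47-fold lower (DESeq2 Wald test, adjusted p = 6e-13). Its 95% interval ran from −3.07 to −1.83.

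SOC1, the integrator of the flowering pathways, had 124 and 94 normalized reads in tetraploid Col-0 libraries A and B, against 199 and 192 in the diploid ones. The whole reads were 121, 86, 227 and 189. The means were 109 ± 21.1 in tetraploid and 195 ± 5.06 in diploid Col-0 (SD, n = 2 each). The ploidies did not overlap, and the tetraploid libraries stood further apart from each other than the diploid ones. In the authors' deposited table SOC1 fell by 0.84 ± 0.27 on the log2 scale (DESeq2 adjusted p = 0.014), which is 1.79-fold lower, with a 95% interval from −1.36 to −0.32. In a limma fit to the recovered reads the adjusted p was 0.0071, and it was 0.1, 0.096 and 0.062 without diploid library A, diploid library B and tetraploid library B. Without tetraploid library A it was 0.018. With the Wald statistics of the authors' deposited table divided by their own spread over all genes, 1.44, the call ended as well (adjusted p = 0.25).

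FUL, which acts beside SOC1 and also patterns the fruit, had 17.4 and 15.3 normalized reads in tetraploid Col-0, against 42 and 32.4 in diploid Col-0, from 17, 14, 48 and 32 reads. Both tetraploid libraries were below both diploid ones. The authors' deposited table gave −1.19 ± 0.61 (DESeq2 adjusted p = 0.22), with a 95% interval from −2.39 to 0.02. The limma fit called it lower (−1.13 ± 0.31, adjusted p = 0.03), and that call ended without any 1 of the 4 libraries (adjusted p from 0.051 to 0.13).

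**Figure D1:**
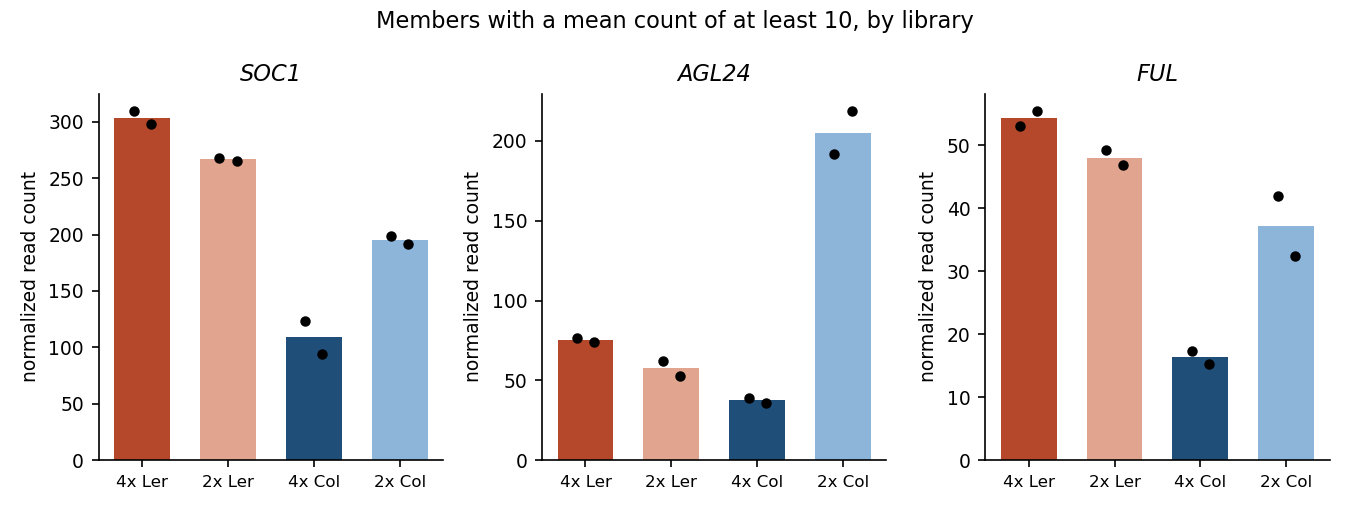
Normalized read counts of SOC1, AGL24 and FUL in tetraploid (4x) and diploid (2x) Ler and Col-0 seedlings; bars are group means and points the 2 libraries of a group. In Col-0 the tetraploid libraries of all 3 genes lie below the diploid ones (AGL24 at 38.9 and 36.1 against 192 and 219), and in Ler they lie slightly above.

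The remaining members were near the limit of detection in these seedlings. AGL19 had 2 and 5 reads in tetraploid Col-0, against 6 and 12 in diploid Col-0, and the ploidies overlapped once reads were scaled for depth. AGL42, which also acts in the root, had 2 and 1 reads in tetraploid Col-0, against 5 and 3 in diploid Col-0. For AGL71, the tetraploid libraries had 0 and 1 reads and the diploid ones 0 and 5. The ratio of tetraploid to diploid reads, with an exact binomial 95% interval that covers counting error only, was 0.438 for AGL19 (0.155 to 1.10), 0.422 for AGL42 (0.0721 to 1.76) and 0.225 for AGL71 (0.00476 to 2.01). All 3 intervals included 1, and that of AGL71 left room for a fall of many fold. In the authors' deposited table none of these was called, with DESeq2 adjusted p of 0.68 for AGL19, 0.81 for AGL42 and 0.76 for AGL71.

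Of the 6 members listed for Col-0, all had an adjusted p in the authors' deposited table. SOC1 and AGL24 fell, 0 rose and 4 were not called. Over all tested genes 15.4% were called, 8.23% lower and 7.13% higher in the tetraploid. The members were chosen with earlier results of these data known, so these shares are description only. With scaled statistics 1 of the 6 members was called, against 6.84% of genes. Limma, run only on members whose mean count reached 10, called 3 of 3, against 26.4% of genes. The 6 members had log2 fold changes below 0, with a median of −1.23, where 50.5% of all listed genes were below 0 and their median was 0.00 in the authors' deposited table. For the 3 whose mean count reached 10 the median was −1.19. Both tetraploid libraries were below both diploid ones in 4 of the 6 members, an arrangement that 29.5% of all recovered genes showed, while 29.6% showed the opposite one. For members whose mean count reached 10 it was 3 of 3, against 32.1% of genes at that level (32.2% the opposite way).

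In Ler no member passed the test. SOC1 had 309.5 and 298 normalized reads in tetraploid Ler libraries A and B, against 268 and 265 in the diploid ones, from 315, 274, 289 and 266 reads. The tetraploid libraries were both higher. The authors' deposited table gave 0.19 ± 0.19 (DESeq2 adjusted p = 0.74), with a 95% interval from −0.17 to 0.55. AGL24 had 76.6 and 73.9 normalized reads in tetraploid Ler, against 62.2 and 52.8 in diploid Ler, again without overlap. The change in the authors' deposited table was 0.39 ± 0.36 (DESeq2 adjusted p = 0.72), with an interval from −0.32 to 1.10. FUL had 53.1 and 55.4 normalized reads in tetraploid Ler, against 49.2 and 46.8 in diploid Ler, at 0.18 ± 0.41 in the authors' deposited table (DESeq2 adjusted p = 0.93, interval −0.62 to 0.98). In all 3 genes both tetraploid libraries were above both diploid ones, as in 27.2% of genes whose mean count reached 10 (27.7% the opposite way). The Ler intervals of SOC1, AGL24 and FUL did not include the log2 fold change that each had in Col-0. That comparison leaves out the error of the Col-0 values.

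**Figure D2:**
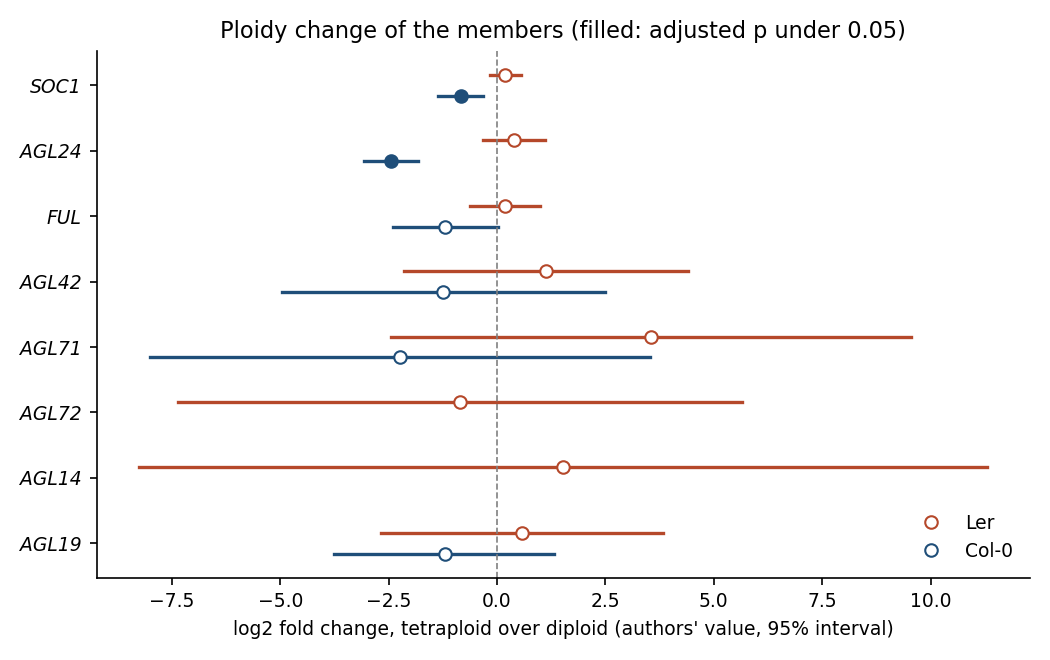
The authors' log2 fold change, tetraploid over diploid, of each listed member in Ler and Col-0 seedlings with its 95% interval; filled points have an adjusted p under 0.05. SOC1 (−0.84) and AGL24 (−2.45) in Col-0 are filled, and the intervals of AGL71, AGL72 and AGL14 span several log2 units.

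The other 5 members had mean counts in Ler too low for an adjusted p. Tetraploid Ler had 2 and 6 reads of AGL42, against 2 and 2 in diploid Ler. AGL19 had 3 and 4 reads in tetraploid Ler, against 1 and 4 in diploid Ler. AGL71 had 2 reads in each tetraploid library and 0 in each diploid library, and the counting interval of that ratio began at 0.709. AGL72, which lies next to AGL71 on chromosome 5, had 0 and 1 reads in tetraploid Ler, against 1 and 1 in diploid Ler. AGL14, which acts in root and shoot meristems, had a single read, in tetraploid Ler library A. Counting intervals of the ratio ran from 0.576 to 9.75 for AGL42, from 0.411 to 6.01 for AGL19 and from 0.0091 to 10.3 for AGL72. All of these intervals included 1. Over all 8 members, both tetraploid libraries were above both diploid ones in 4, against 25.2% of all recovered genes, and 24.1% had the opposite arrangement. The log2 fold change was below 0 in 1 of 8, against 49.4% of listed genes, in the authors' deposited table. Of the 3 members with an adjusted p in Ler, 0 were called in the authors' deposited table, where 5.1% of all genes were (1.91% lower and 3.19% higher in the tetraploid), and 0 of the 8 had an unadjusted p under 0.05. The limma fit called 0 of the same 3 members, against 10.3% of genes, and scaled statistics called 0, against 2.21%.

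**Figure D3:**
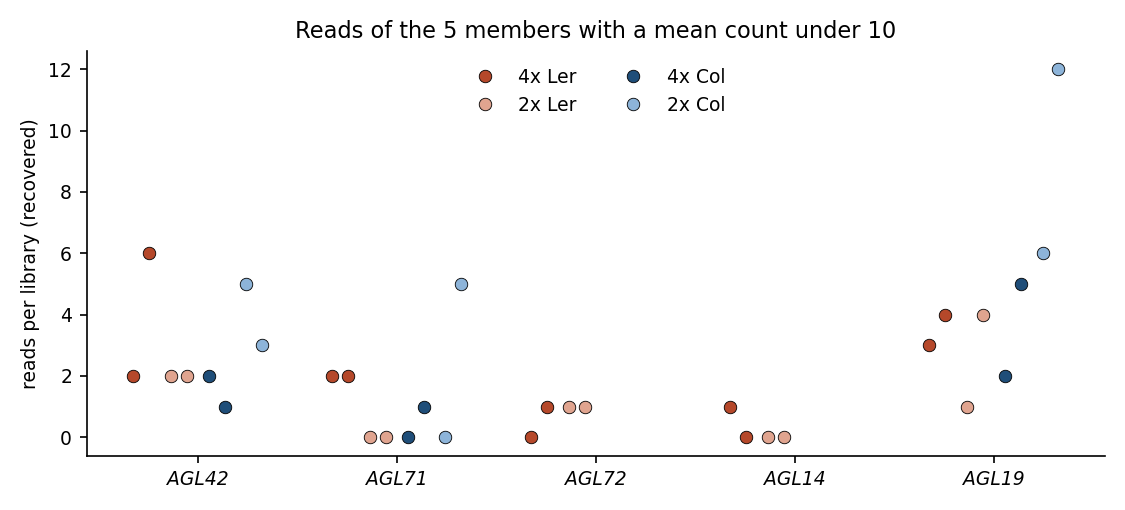
Whole reads per library, recovered from the deposited means, of the 5 members with a mean count under 10, in tetraploid (4x) and diploid (2x) Ler and Col-0 libraries. Each point is a library, no member exceeds 12 reads, and AGL72 and AGL14 have no Col-0 points because the Col-0 table does not list them.

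The change between diploid and tetraploid differed between the ecotypes for AGL24 and SOC1. Any other difference between the diploid and tetraploid plants of an ecotype cannot be told apart from ploidy here. In Col-0, 103 called genes had no recovered reads in the tetraploid and 44 had none in the diploid, against 0 and 12 in Ler. Subtracting the Col-0 from the Ler log2 fold change gave 2.84 ± 0.48 for AGL24 (two-sided Wald test, adjusted over 21361 shared identifiers, adjusted p = 2.6e-07), from 0.39 in Ler and −2.45 in Col-0 in the authors' deposited tables. For SOC1 the difference was 1.03 ± 0.32 (adjusted p = 0.022), with an adjusted p of 0.34 once the statistics were divided by their spread over all genes, 1.4. FUL gave 1.36 ± 0.74 (adjusted p = 0.32), with a 95% interval from −0.08 to 2.81, which included both 0 and nearly the value of AGL24. For AGL42, AGL71 and AGL19 the differences of 2.37 ± 2.53, 5.78 ± 4.24 and 1.79 ± 2.11 did not pass (adjusted p of 0.76, 0.56 and 0.8). Among the 6 members listed for both ecotypes, 2 were called, both with the Ler change above the Col-0 change, against 8.71% of all shared identifiers (4.97% with Ler above and 3.74% with Ler below).

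The levels themselves ordered the groups differently for AGL24 than for SOC1 and FUL. The tables were normalized separately, with a median log2 ratio of Ler to Col-0 mean counts of 0.03 over 13324 genes, and levels across them were not tested. Reads of both ecotypes were run on the build TAIR10, and whether Ler reads of single genes were lost in mapping was not tested. Mean normalized reads of SOC1 were 304 in tetraploid Ler, 267 in diploid Ler, 195 in diploid Col-0 and 109 in tetraploid Col-0. FUL followed the same order, with 54.2, 48, 37.2 and 16.3 in those groups. For AGL24 the highest group was diploid Col-0 with 205, followed by tetraploid Ler with 75.3, diploid Ler with 57.5 and tetraploid Col-0 with 37.5. Diploid Ler thus had 0.28 times the AGL24 of diploid Col-0, 1.37 times its SOC1 and 1.29 times its FUL. In each of these orders tetraploid and diploid Ler are neighbours, and their difference did not pass the test.

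Ratios between members within a library do not depend on the separate normalization, but any loss of Ler reads in mapping would remain in them. Tetraploid Ler libraries had 0.248 and 0.248 reads of AGL24 per read of SOC1, and diploid Ler libraries 0.232 and 0.199. Tetraploid Col-0 libraries had 0.314 and 0.384, and diploid Col-0 libraries 0.965 and 1.14. Diploid Col-0 therefore stood apart from all other groups in this ratio. Reads of FUL per read of SOC1 were 0.171 and 0.186 in tetraploid Ler, 0.183 and 0.177 in diploid Ler, 0.14 and 0.163 in tetraploid Col-0, and 0.211 and 0.169 in diploid Col-0. That ratio ran from 0.14 to 0.211 over the 8 libraries. Its tetraploid Col-0 values rested on 17 and 14 reads of FUL, too few to show a moderate change.

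In Col-0 the errors of SOC1, AGL24 and FUL were close to those of genes at their level. The SE of SOC1 in Col-0 was 0.27 in the authors' deposited table, where genes with a mean count within 1.5 times had a median SE of 0.26. For AGL24 the authors' deposited table gave 0.32, against 0.29 for such genes, and for FUL 0.61 against 0.62.

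Among 23 regulators, partners and targets of these genes in the flowering pathway, 22 were listed in Col-0, where 5 fell, 1 rose and 15 were not called. The 6 called were 28.6% of the 21 tested, against 15.4% of all genes. With scaled statistics 4 of the 21 were called, against 6.84% of genes. The list was chosen with earlier results of these data known, so these shares are description only. SEP4, a MADS-box gene of the floral meristem, fell furthest, with 9.2 and 5.46 normalized reads in tetraploid Col-0, against 228 and 267 in diploid Col-0 (−5.07 ± 0.47 in the authors' deposited table, DESeq2 adjusted p = 4.7e-25). SPL4, a promoter of flowering controlled by miR156, had 12.3 and 37.2 in tetraploid Col-0, against 91.9 and 96.3 in diploid Col-0 (−1.94 ± 0.49 in the authors' deposited table). TEM2, a repressor of FT, gave −1.76 ± 0.25, SVP −0.53 ± 0.12, and GI, which acts upstream of CO, −0.42 ± 0.13 in the authors' deposited table. Repressors and promoters of flowering were thus both among the genes that fell. With scaled statistics the calls of SPL4 (adjusted p = 0.074) and GI (adjusted p = 0.21) ended. In limma SPL4 was not called without diploid library A (adjusted p = 0.12) or B (adjusted p = 0.14), and GI without diploid library B (adjusted p = 0.084) or tetraploid library B (adjusted p = 0.082). FLC was the gene that rose, with 865 and 1064 normalized reads in tetraploid Col-0, against 177 and 135 in diploid Col-0, and it is also a ground for the direction of all fold changes. The median of the list was −0.38 in the authors' deposited table, against 0.00 over all genes.

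LFY, the gene that SOC1 and AGL24 turn on, had 6.14 and 3.28 normalized reads in tetraploid Col-0, against 5.25 and 3.04 in diploid Col-0. Its log2 fold change of 0.18 ± 1.45 in the authors' deposited table carried too large an error to show a moderate change. AP1, the floral identity gene downstream of it, was not listed in Col-0. In Ler all 23 genes of the list were listed. In the authors' deposited table DESeq2 called 0 of the 17 with an adjusted p, against 5.1% of all genes. Limma called 0 of these, against 10.3% of genes. An unadjusted p under 0.05 was held by 0 of the list. The share of all genes at that cut was not computed. The median of the list in Ler was −0.02.

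Of the other 31 MADS-box genes of the same structural type (MIKCc), 28 were listed in Col-0, where 3 fell, 1 rose and 18 were not called. The 4 called were 18.2% of the 22 tested, near the 15.4% of all genes. Besides SEP4, SVP and FLC, which stand in both lists, the called gene was MAF5, a relative of FLC, with 16.4 and 9.83 normalized reads in tetraploid Col-0, against 35.9 and 60.8 in diploid Col-0 (−1.88 ± 0.62 in the authors' deposited table, DESeq2 adjusted p = 0.02). Its call ended with scaled statistics (adjusted p = 0.28), and in limma without diploid library B (adjusted p = 0.09) or tetraploid library B (adjusted p = 0.086). The median of these genes was −0.09 in Col-0 and 0.02 in Ler in the authors' deposited tables. In Ler 0 of 13 with an adjusted p were called by DESeq2 in the authors' deposited table, against 5.1% of all genes. Limma called 0 of them, against 10.3% of genes. An unadjusted p under 0.05 was held by 0 of the listed genes, and no share of all genes was computed at that cut.

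The difference between ecotypes was called for 3 of the 38 genes of these lists, or 7.89%, near the 8.71% of all shared identifiers. It was 5.38 ± 0.99 for SEP4 (adjusted p = 3.4e-06), 2.82 ± 0.88 for SPL4 (adjusted p = 0.019) and −2.21 ± 0.34 for FLC (adjusted p = 7.5e-09), by the same Wald test. With scaled statistics the SPL4 difference was not called (adjusted p = 0.32). Over the 24 genes of the lists with an adjusted p in both tables, those nearest to AGL24 in the plane of the Ler and Col-0 log2 fold changes were MAF5, SPL4 and TEM2, at distances of 0.67, 0.72 and 0.87. Nearest to SOC1 were FT, SVP and GI, at 0.09, 0.41 and 0.58. FT, the mobile flowering signal, was itself not called in Col-0 (−0.79 ± 1.18 in the authors' deposited table), so its place is uncertain.

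**Figure D4:**
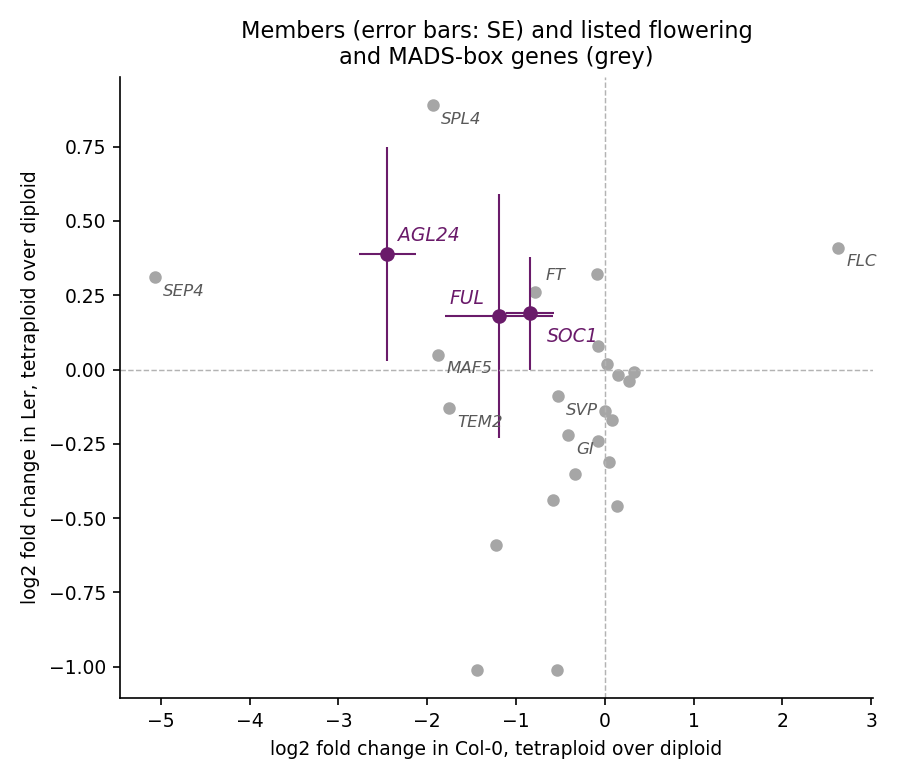
Log2 fold change, tetraploid over diploid, in Ler (vertical) against Col-0 (horizontal) for SOC1, AGL24 and FUL (purple, bars are SE) and for 24 listed flowering and MADS-box genes (grey). The 3 members lie left of 0 in Col-0 and at 0.18 to 0.39 in Ler, and SEP4 lies furthest left at −5.07.

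Gene order was taken from a RefSeq table of the assembly TAIR10.1, which lists no gene that overlaps a member. Of the 10 listed genes nearest to AGL24, 5 on each side, 1 was called in Col-0 in the authors' deposited table, the mitochondrial carrier gene DIC2 (−0.71 ± 0.26), and their median log2 fold change was −0.01. Around SOC1, 2 of the 9 tested, or 22.2%, were called against 15.4% of all genes, and both were higher in the tetraploid, TCP9, a transcription factor gene, and AT2G45630, each at 0.60 in the authors' deposited table. AGL6, a MADS-box gene that lies directly beside SOC1, had 2 and 0 reads in tetraploid Col-0, against 8 and 1 in diploid Col-0. Around FUL, 2 of 10 were called, and MYB34, a regulator of indole glucosinolates, and AT5G60930 were higher in tetraploid Col-0 (0.38 ± 0.12 and 0.43 ± 0.12 in the authors' deposited table). With 20 genes on each side, a window chosen after seeing the data, 6 of 38 tested genes were called around each of SOC1, AGL24 and FUL, or 15.8%, near the 15.4% of all genes. With scaled statistics 3 of these were called around SOC1, 0 around AGL24 and 2 around FUL, where 6.84% of all genes were called.

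**Figure D5:**
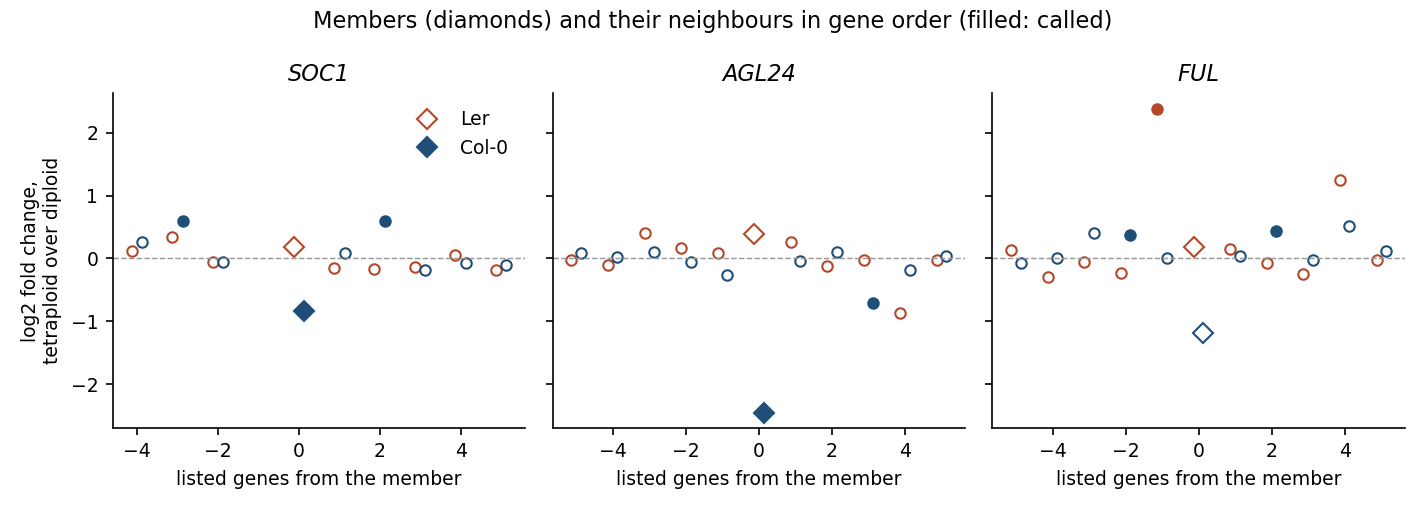
The authors' log2 fold change, tetraploid over diploid, of SOC1, AGL24 and FUL (diamonds at 0) and of listed genes with mean counts from 10 upward up to 5 places away in gene order (circles), in Ler and Col-0; filled symbols are called. In Col-0 AGL24 stands at −2.45 between neighbours of which the lowest, DIC2, is at −0.71.

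No marker of root, shoot meristem or floral organs was called, where 15.4% of all genes were called in Col-0 and 5.1% in Ler. In Ler only 3 meristem, 2 root and 2 floral organ markers had an adjusted p. No floral organ marker reached a mean count of 10 in Col-0. Of the 6 leaf markers, CAB1, a chlorophyll-binding protein gene, was lower in tetraploid Col-0 (−0.23 in the authors' deposited table, DESeq2 adjusted p = 0.0004). LHCB6, another, was lower in tetraploid Ler (−0.26 in the authors' deposited table, DESeq2 adjusted p = 0.015). In bulk seedlings fewer cells of a type and less RNA per cell cannot be told apart. The 4 shoot meristem markers listed in Col-0 summed to 210 and 262 normalized reads in tetraploid libraries, against 244 and 287 in diploid ones, and 0 of 4 were called, with WUS not listed. The 6 listed floral organ markers summed to 24.6 and 19.7 in tetraploid Col-0, against 31.5 and 30.4 in diploid Col-0. Of these, 5 had an adjusted p and 0 were called, and AP1 was not listed. Of 7 root markers, 5 were listed in Col-0 and summed to 75.7 and 65.6 in tetraploid libraries, against 51.6 and 38.5 in diploid ones, again with 0 called. In Ler the 5 listed meristem markers summed to 283 and 312 in tetraploid libraries, against 334 and 428 in diploid ones. Of the 3 with an adjusted p, 0 were called. The 5 listed root markers summed to 35.4 and 46.8 in tetraploid Ler, against 62.2 and 60.8 in diploid Ler. The floral organ and root sums in Col-0 and the meristem and root sums in Ler did not overlap between ploidies. Such separation was common among single genes whose mean count reached 10. Both tetraploid libraries lay below both diploid ones in 32.1% of these genes in Col-0 and 27.7% in Ler. They lay above in 32.2% in Col-0 and 27.2% in Ler. No such share was computed for sums, so their separation alone does not show a change in tissue. The part of these sums in the members' values was not tested.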

How the data were processed

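The members and gene lists were chosen with earlier results of these data known. RNA was selected for poly(A), per the labels' protocols, and HISAT2, Subread and DESeq2 were run on the build TAIR10, per the submitters' processing notes, which give no versions. No label records if reads were counted by strand. Each of the 2 deposited tables gives, per the file headers, the authors' mean of size-factor normalized counts over 4 libraries (a signal), the authors' log2 fold change and SE, the Wald statistic, a deposited score without a fixed range, and the deposited p-value and adjusted p-value. An adjusted p is blank below a mean count of 1.16 in Col-0 and 7.23 in Ler. The tables were normalized separately.

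The lowest means take 4 recurring values, those of genes with a single read in a single library, and give the 4 size factors. The whole reads that give each deposited mean were found as the lattice point nearest to the counts its mean and fold change imply. They were accepted when unique and within 0.1 log2 of the deposited fold change, or 0.01 from a mean of 1000. Where a ploidy had 0 reads, as for AGL71 and AGL14 in Ler, only the sign of the fold change had to match. The recovery was tested on simulated data, where 100% of genes with a mean under 1000 came out right. The error given to the simulated fold changes was smaller than the largest gap in the real data. There the recovered ratio departed from the deposited fold change by up to 0.097 log2 in Col-0 and 0.072 in Ler, over genes with reads in both ploidies. Size factors recomputed from the recovered reads differed from the steps by at most 0.001, and no gene with a mean above 10000 was recovered. Libraries held 12063232 to 15454392 recovered reads. The sign of the fold change of single-read genes placed each library in its ploidy.

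A gene is called at an adjusted p under 0.05. The test of each ploidy change is the authors' deposited Wald test, and the ecotype difference is a Wald test of the difference of fold changes. Genes named beside the members are those called in the fixed lists or within 5 places of a member, and the 3 list genes nearest to SOC1 and to AGL24. LFY, AP1, AGL6, CAB1, LHCB6, WUS and, in the wider AGL19 window, the CRK genes and LDOX fall outside this rule and were chosen after their values were seen. The alternatives were no filter, a mean count of at least 10, statistics divided by their spread, recentring, and limma 3.58.1 (R 4.3.3, trend) on log2(normalized reads + 1) or + 0.5 over genes with a mean of at least 10, also without each library. No label says that replicates came from separate plants, so the spread that the p-values rest on may be technical. Identifiers matched the RefSeq table for 98.5% in Ler and 98.7% in Col-0. The ChIP-seq libraries, 16 in all, were not analysed here, levels were not divided by length, and no sequence is printed.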

Additional observations from a re-analysis of the deposited data

Results flagged for a closer look

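The Ler change of AGL24 minus its Col-0 change, 2.84 ± 0.48 on the log2 scale, passed the test of the difference between ecotypes itself (Wald test, adjusted p = 2.6e-07). AGL24 was lower in both tetraploid Col-0 libraries than in both diploid ones and higher in both tetraploid Ler libraries than in both diploid ones. For SOC1 the difference was 1.03 ± 0.32 (Wald test, adjusted p = 0.022), with the same arrangement of libraries, and it did not pass with statistics divided by their spread (adjusted p = 0.34). Of genes whose mean count reached 10, 32.1% had the lower arrangement in Col-0 and 27.2% the higher one in Ler. The share with both was not computed. The Ler changes themselves were not called (DESeq2 adjusted p = 0.72 for AGL24 and 0.74 for SOC1).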

How the results depend on the processing

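Over the members, 33 of 39 alternative values in Col-0, 35 of 35 in Ler and 20 of 21 for the ecotype difference kept their direction and their side of the threshold, and 0 reversed. The exceptions were SOC1 and FUL. No filter, a mean count of at least 10 and scaled statistics reuse the deposited fold change, so under these the direction could not change. For AGL42, AGL71, AGL72, AGL14 and AGL19 at most such settings and recentring were run. In Ler no member was called, so no call could be lost there. With statistics divided by their spread, SOC1 in Col-0 stayed at −0.84 with an adjusted p of 0.25 and its ecotype difference at 1.03 with 0.34, which left 1 member called in each. Limma called FUL in Col-0, at −1.13 with a pseudocount of 1 and −1.15 with 0.5. Leaving out 1 library in limma gave −1.05 to −0.65 for SOC1 in Col-0 and 1 to 2 members called, where the lone library of a ploidy is assumed to vary like the others. Over all genes the calls in Col-0 were 3290, against 1466 with scaled statistics, 4921 and 4852 with limma, and 2238 to 2580 in limma without 1 library. In Ler they were 952, against 413 with scaled statistics, 1850 and 1837 with limma, and 407 to 3150 in limma without 1 library. The ecotype difference had 1860, against 652 with scaled statistics. The scaled and limma values of the listed and neighbouring genes were added after seeing the data. No paired analysis was possible because the tables give no library its replicate number. The correction of levels for coding length was not run, since no protein lengths were at hand. Depth limits AGL42, AGL71, AGL72, AGL14 and AGL19, none of which exceeded 12 reads in a library.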

Other observations

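In the 20 listed genes on each side of AGL19, a window chosen after seeing the data, 8 of 34 tested genes were higher in tetraploid Ler, or 23.5%, against 5.1% of all genes. The windows of that size around the other members held 2.86% to 5.88% called genes in Ler. With scaled statistics 4 of the 8 were called, CRK7 and LDOX among them and CRK5, CRK8 and CRK10 not. Scaled statistics called 2.21% of all genes in Ler. The 8 included the neighbouring receptor-like kinase genes CRK5, CRK7, CRK8 and CRK10 (2.42 ± 0.67, 3.41 ± 0.77, 2.75 ± 0.81 and 0.80 ± 0.20 in the authors' deposited table) and LDOX, an anthocyanin synthesis gene (0.72 ± 0.11). In Col-0 the same window held 2 called genes, CRK6 and CRK7, both lower in the tetraploid (−2.03 ± 0.29 and −2.24 ± 0.83 in the authors' deposited table), and CRK7 was not called with scaled statistics (adjusted p = 0.41). CRK7 had 50.1 and 31.5 normalized reads in tetraploid Ler, against 3.71 and 3.98 in diploid Ler, and 71.6 and 75.4 in tetraploid Col-0, against 536 and 157 in diploid Col-0. Members of this cluster resemble each other, so their counts are uncertain where reads were split among copies.

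Beside AGL14, ARCK1 had 140 and 126 normalized reads in tetraploid Ler, against 9.28 and 8.97 in diploid Ler (3.86 ± 0.46 in the authors' deposited table). In Col-0, AT4G11900 and PLDGAMMA2 near AGL14 were lower in the tetraploid (−2.78 ± 0.33 and −1.65 ± 0.14 in the authors' deposited table). RLK1, directly beside FUL, was higher in tetraploid Ler (2.38 ± 0.46 in the authors' deposited table). AT5G62140, 2 listed places from AGL42 in Col-0, was lower in tetraploid Col-0 and higher in tetraploid Ler (0.36 ± 0.11 in Ler and −0.86 ± 0.10 in Col-0 in the authors' deposited tables), and AT5G62210 was lower in tetraploid Col-0 (−0.27 ± 0.09). With scaled statistics AT5G62140 in Ler (adjusted p = 0.19) and AT5G62210 in Col-0 (adjusted p = 0.23) were not called.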
